A study of Gallus gallus with 17 samples.

Results

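The insulin receptor signalling cascade was examined through 9 gene symbols: INSR, IRS1, IRS2, PIK3R1, PIK3CA, AKT1, FOXO1, PRKAA1 and PRKAA2. Its members are all probe sets whose single annotated gene symbol is one of these, where a probe set combines several short probes against 1 transcript region. The rule found 20 probe sets of 8 genes, out of 37693 chicken probe sets on the array, of which 27166 carry 1 symbol. The rule found no probe set for IRS1, which was not analysed here. The values come from adipose tissue of male chickens aged 3 weeks, with no treatment named in the labels, hybridised 1 sample per array to 17 Affymetrix arrays. The groups are 5 arrays of the line Fayoumi M 5.1, 6 arrays of the line Leghorn GHs 13 and 6 arrays of a broiler line that the labels do not name further. The labels name neither the fat depot nor the feeding state, and they call the arrays biological replicates without saying how birds were sampled, so p-values here rest on the spread between these samples, which may be technical.

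Insulin binds its receptor, a tyrosine kinase, which phosphorylates docking proteins of the insulin receptor substrate family. These recruit phosphoinositide 3-kinase, whose lipid product activates the kinase AKT, and AKT in turn keeps FOXO transcription factors out of the nucleus and favours glucose uptake and lipid storage. AMP-activated protein kinase, with PRKAA1 or PRKAA2 as its catalytic subunit, senses low cellular energy and restrains fat synthesis. Chickens have a high plasma glucose for a vertebrate, and their adipose tissue mainly stores fat that was made in the liver.

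Across the 3 lines no member of the cascade passed the test. PRKAA1 came closest: its level was 2.41-fold higher in Fayoumi than in broiler adipose without passing the test. The call depended on which arrays labelled broiler were kept and on how arrays were weighted. INSR was lower in mean in Fayoumi than in broiler and did not pass either. The mean level of INSR was higher, and those of IRS2, PIK3R1, PIK3CA, AKT1, FOXO1 and PRKAA1 lower, on a set of 5 arrays that stood apart from the rest. No Fayoumi array is in this set, so the contrast also mixes lines. The set was picked on values that include those of these genes, so this is a description. The plot of values by line shows these patterns.

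**Figure D1:**
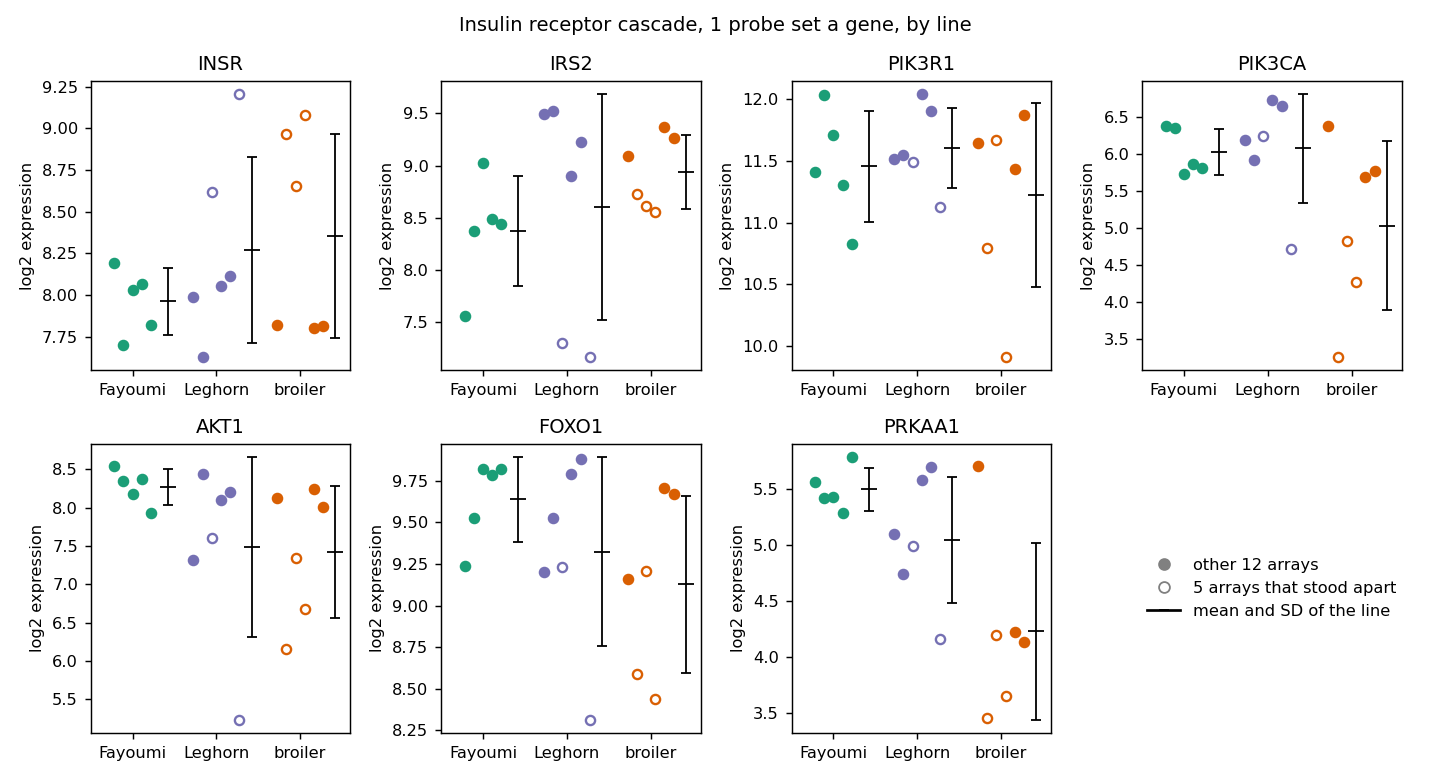
Log2 expression of the 7 measured cascade genes (y axis, 1 probe set per gene) in Fayoumi, Leghorn and broiler adipose (x axis); each point is 1 array, open points are the 5 arrays that stood apart, and bars give mean ± SD. The open points of INSR sit from 8.62 to 9.21, above all filled points, while those of AKT1 and PIK3CA lie mostly low.

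Some arrays did not sit with their labels or with the rest. On the first principal component of the 19345 probe sets above background on all arrays (52.9% of the variance), the arrays labelled broiler 2, 3 and 4 and Leghorn 3 and 6 scored between 0.21 and 0.477, against −0.191 to −0.125 on the other 12. The 3′ minus 5′ signal of the actin control ACTB, a measure that moves with RNA integrity, ranged from 1.49 to 1.92 on the 5 and from 1.91 to 2.70 on the remaining 12. No Fayoumi array is among the 5. Separately, over probe sets that differed by more than 2 log2 units between Leghorn and broiler on the remaining arrays, the position of the array labelled broiler 1 was 0.969 and that of the array labelled Leghorn 2 was 0, on a scale where 0 is the broiler mean and 1 the Leghorn mean. The other 5 broiler arrays lay between 0 and 0.119 and the other 5 Leghorn arrays between 0.591 and 1.

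Background was set at 2.29 log2, which 95% of the pooled readings of 80 control probe sets on the 17 arrays do not exceed. Of the 20 probe sets, 12 were above background on all 17 arrays, 1 more was above it on at least 5 arrays, and 7 on fewer than 5. For 2 of the 13 measured probe sets most arrays share a single value, so only their levels are given. A second INSR probe set read 4.94 on 11 arrays and was highest on the arrays labelled broiler 4, at 5.99, and Leghorn 6, at 5.96. Another PIK3R1 probe set read 2.31 on 10 arrays. The single PRKAA2 probe set was at or near the lowest value of the table on all arrays, so no level of the muscle-type catalytic subunit was measured. The other 6 dim probe sets carry the symbols INSR, IRS2 and PRKAA1, each of which also has a brighter probe set. For IRS2 the dim probe sets carry another gene number than the bright one, so they share the symbol only. The 11 probe sets left, of 7 genes, carry the comparisons below, and this selection was made once their values were known.

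Tested over all 37693 chicken probe sets, Fayoumi against broiler gave 269 probe sets with a limma adjusted p under 0.05 (0.714%), and 0 of the 20 members were among them. Leghorn against broiler gave no such probe set (0%), with 1840 at an unadjusted p under 0.05, and 0 of the 20 members. Fayoumi against Leghorn gave 236 (0.626%), again with 0 of the 20 members. At an unadjusted p under 0.05 the members numbered 2, 2 and 0 of 20 in these comparisons. They were the brightest PRKAA1 probe set and a dim AKT1 probe set in Fayoumi against broiler. In Leghorn against broiler they were the same PRKAA1 probe set and PIK3CA. Over all 37693 probe sets the numbers were 3834, 1840 and 2791. With array weights limma called 1 member, PRKAA1, in Fayoumi against broiler and none in the others. It then called 3.50%, 0.0239% and 5.42% of all probe sets. No member had groups without overlap, against 3.05% of all probe sets in Fayoumi against broiler, 0.0186% in Leghorn against broiler and 2.57% in Fayoumi against Leghorn. Of the 11 compared probe sets, 9 were higher and 2 lower in Fayoumi than in broiler, with a median log2 difference of 0.46, against −0.02 over all probe sets above background on all arrays. The same counts, 9 and 2, held for Leghorn against broiler, with a median of 0.29, against −0.004 over all probe sets above background on all arrays. These comparisons share the broiler arrays. With the 5 arrays that stood apart left out, 7 were higher and 4 lower in Fayoumi (median 0.13) and 10 were higher and 1 lower in Leghorn (median 0.099) than in broiler. Leaving out broiler 1 and Leghorn 2 as well kept 2 broiler arrays. Then 6 were higher and 5 lower in Fayoumi (median 0.15), and 7 higher and 4 lower in Leghorn (median 0.17). Fayoumi against Leghorn, with all arrays, split into 5 higher and 6 lower, with a median of −0.03. Several of the 11 probe sets read the same gene, so these counts are not of independent members. With 1 probe set for each of the 7 genes and all arrays, 5 were higher and 2 lower than in broiler in both lines. The medians were then 0.51 in Fayoumi and 0.20 in Leghorn. Fayoumi against Leghorn had 3 genes higher and 4 lower, with a median of −0.05.

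**Figure D2:**
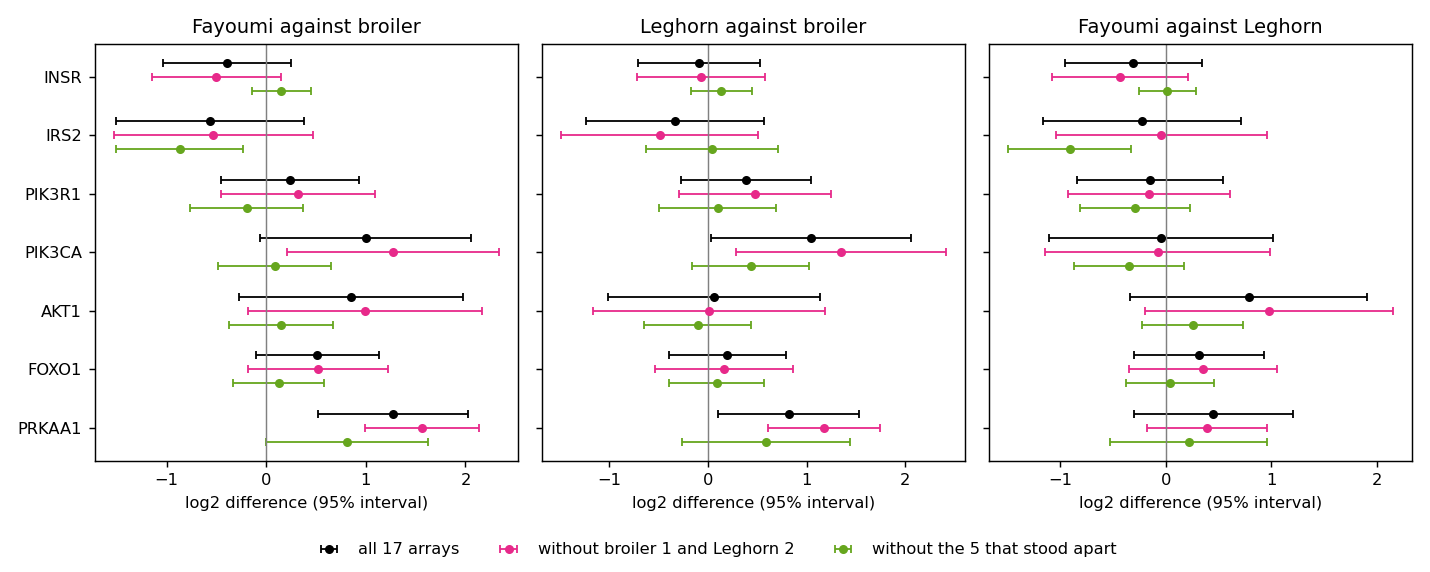
Log2 differences of the 7 measured cascade genes (rows, 1 probe set per gene) in Fayoumi against broiler, Leghorn against broiler and Fayoumi against Leghorn (panels, x axis in log2 units), with 95% intervals from limma for all 17 arrays, without the arrays labelled broiler 1 and Leghorn 2, and without the 5 arrays that stood apart. In Fayoumi against broiler PRKAA1 lies farthest right, at 1.27 with all arrays and 1.56 without broiler 1 and Leghorn 2. In Leghorn against broiler PIK3CA does in these settings, at 1.05 and 1.35. Without the 5 arrays PRKAA1 lies farthest right in both, at 0.81 in Fayoumi and 0.59 in Leghorn, where PIK3CA is at 0.43.

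INSR encodes the insulin receptor itself. Its brightest probe set read 8.19, 7.70, 8.03, 8.07 and 7.82 log2 on the 5 Fayoumi arrays. The lowest, median and highest values were 7.63, 8.08 and 9.21 in Leghorn and 7.80, 8.24 and 9.08 in broiler. The Fayoumi values lie among the lower values of both other groups, and the high Leghorn and broiler values are those of the 5 arrays that stood apart. On those 5 arrays INSR read 8.62 to 9.21, against 7.63 to 8.19 on the other 12, with no overlap. INSR was the only compared member for which this held. Of all chicken probe sets 12.5% also had no overlap between these sets of arrays. Among the 19345 above background on all arrays the share was 23.7%. The 5 arrays stood apart on a component of those same 19345 probe sets, INSR among them, so its separation is a description.

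INSR averaged 7.96 ± 0.20 in Fayoumi and 8.36 ± 0.61 in broiler (SD), a log2 difference of −0.39 (SE 0.30, 95% interval −1.04 to 0.25, limma adjusted p = 0.657). Leghorn averaged 8.27 ± 0.56, which was −0.09 against broiler. With the 5 arrays left out the Fayoumi difference from broiler was 0.15 and that of Leghorn 0.13, so the direction of the difference turned with them.

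Beside these INSR levels, the summed level of 9 endothelial marker genes, of which 8 were above background on all arrays, was 14.01 to 14.59 log2 on the 5 arrays and 14.54 to 15.31 on the other 12. The summed level of 6 smooth muscle and pericyte markers, all above background on every array, was 12.54 to 13.96 on the 5 arrays and 11.82 to 12.92 on the other 12. The 13.96 was the array labelled broiler 2, and the rest of the 5 read 12.54 to 12.89. For 10 macrophage markers, all above background on every array, the sum was 15.67 to 16.14 on the 5 arrays and 15.28 to 15.90 on the other 12. The part of these cells in the INSR level was not tested. In whole tissue, fewer cells of a type and less RNA per cell cannot be told apart. The 9 adipocyte markers on the array were above background on every array. Their summed level was 16.88 to 17.04 in Fayoumi, 16.42 to 17.08 in Leghorn and 16.87 to 17.04 in broiler. The 16.42 was the array labelled Leghorn 1.

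IRS2, a docking protein that links the receptor to phosphoinositide 3-kinase, had 1 measured probe set. It read 7.55, 8.37, 9.02, 8.49 and 8.44 on the Fayoumi arrays, 7.16, 9.06 and 9.52 (lowest, median and highest) in Leghorn and 8.55, 8.91 and 9.37 in broiler. All groups overlap, and the lowest values of all belong to the arrays labelled Leghorn 6 and Leghorn 3, at 7.16 and 7.30. The mean was 8.38 ± 0.53 in Fayoumi and 8.94 ± 0.35 in broiler, a difference of −0.56 (SE 0.44, interval −1.50 to 0.38, limma adjusted p = 0.666). Leghorn, at 8.60 ± 1.08, differed from broiler by −0.34 (limma adjusted p = 0.938). When the 5 arrays were left out, Fayoumi stood at −0.87 against broiler and −0.91 against Leghorn, with limma adjusted p-values of 0.367 and 0.198.

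PIK3R1 encodes the regulatory subunit that docks phosphoinositide 3-kinase onto the receptor substrates, and 3 of its probe sets could be compared. The brightest read 11.41, 12.03, 11.71, 11.31 and 10.83 in Fayoumi, 11.12, 11.53 and 12.04 in Leghorn and 9.91, 11.54 and 11.88 in broiler. The 2 lowest broiler values were those of broiler 4, at 9.91, and broiler 2, at 10.79, and Fayoumi 5, at 10.83, came next. The mean was 11.46 ± 0.45 in Fayoumi and 11.22 ± 0.74 in broiler, a difference of 0.24 (SE 0.32, interval −0.46 to 0.93, limma adjusted p = 0.864).

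The other 2 PIK3R1 probe sets ran alongside. The second averaged 11.02 ± 0.40 in Fayoumi, 11.15 ± 0.50 in Leghorn and 10.86 ± 0.76 in broiler. The dimmest of the 3 averaged 7.51 ± 0.57 in Fayoumi, 7.54 ± 0.67 in Leghorn and 7.05 ± 0.80 in broiler. All 3 placed Leghorn above broiler, by 0.38, 0.29 and 0.50, and by 0.099, 0.060 and 0.30 without the 5 arrays. All 3 placed Fayoumi below broiler once the 5 arrays were left out, by −0.20, −0.31 and −0.06, so the positive Fayoumi differences with all arrays were not kept.

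PIK3CA, the catalytic alpha subunit of the same kinase, was the second largest difference against broiler after PRKAA1 in Fayoumi. Its probe set read 6.38, 6.35, 5.73, 5.86 and 5.80 in Fayoumi, 4.71, 6.22 and 6.73 in Leghorn and 3.25, 5.25 and 6.37 in broiler. The lowest values of all were on the arrays labelled broiler 2, broiler 4, Leghorn 6 and broiler 3, at 3.25, 4.27, 4.71 and 4.82, which are among the 5 that stood apart. Leghorn 3, the remaining array of that set, read 6.24 and so lay with the others.

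Mean PIK3CA was 6.03 ± 0.31 in Fayoumi and 5.03 ± 1.15 in broiler, a log2 difference of 1.0 (SE 0.50, interval −0.06 to 2.06, limma adjusted p = 0.515). Leghorn averaged 6.07 ± 0.73, which was 1.05 above broiler (interval 0.03 to 2.06, 2.07-fold, limma adjusted p = 0.852). Fayoumi and Leghorn differed by −0.05 (interval −1.11 to 1.01). Without the 5 arrays the differences from broiler were 0.08 in Fayoumi and 0.43 in Leghorn, and Fayoumi against Leghorn was −0.35.

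AKT1, the kinase activated by the lipid product of phosphoinositide 3-kinase, was represented mainly by 1 bright probe set. It read 8.55, 8.34, 8.18, 8.37 and 7.93 in Fayoumi, 5.24, 7.85 and 8.44 in Leghorn and 6.16, 7.68 and 8.24 in broiler. The Fayoumi arrays lie close together and overlap the higher arrays of both other lines, and the low values are Leghorn 6 at 5.24, broiler 2 at 6.16 and broiler 4 at 6.67. The mean was 8.27 ± 0.23 in Fayoumi, 7.49 ± 1.18 in Leghorn and 7.42 ± 0.86 in broiler. Fayoumi differed from broiler by 0.85 (SE 0.53, interval −0.27 to 1.97, limma adjusted p = 0.591) and from Leghorn by 0.79 (interval −0.34 to 1.91, limma adjusted p = 0.802). Without the 5 arrays these differences were 0.15 and 0.26. A dim second probe set, on which 6 arrays share the value 3.38, averaged 3.58 ± 0.27 in Fayoumi, 3.42 ± 0.21 in Leghorn and 3.22 ± 0.32 in broiler. On it Fayoumi differed from broiler by 0.36 (interval 0.02 to 0.71, limma adjusted p = 0.468), and by 0.19 without the 5 arrays.

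FOXO1 is the transcription factor that AKT holds in the cytoplasm, and in fed animals its activity is low. Its probe set read 9.24, 9.53, 9.82, 9.79 and 9.82 in Fayoumi, 8.31, 9.38 and 9.88 in Leghorn and 8.44, 9.18 and 9.71 in broiler. The groups overlap, and the lowest arrays were again Leghorn 6, broiler 4 and broiler 2, at 8.31, 8.44 and 8.59. The mean was 9.64 ± 0.26 in Fayoumi and 9.13 ± 0.53 in broiler, a difference of 0.51 (SE 0.29, interval −0.11 to 1.13, limma adjusted p = 0.562), and 0.13 without the 5 arrays. Leghorn averaged 9.32 ± 0.57.

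**Figure D3:**
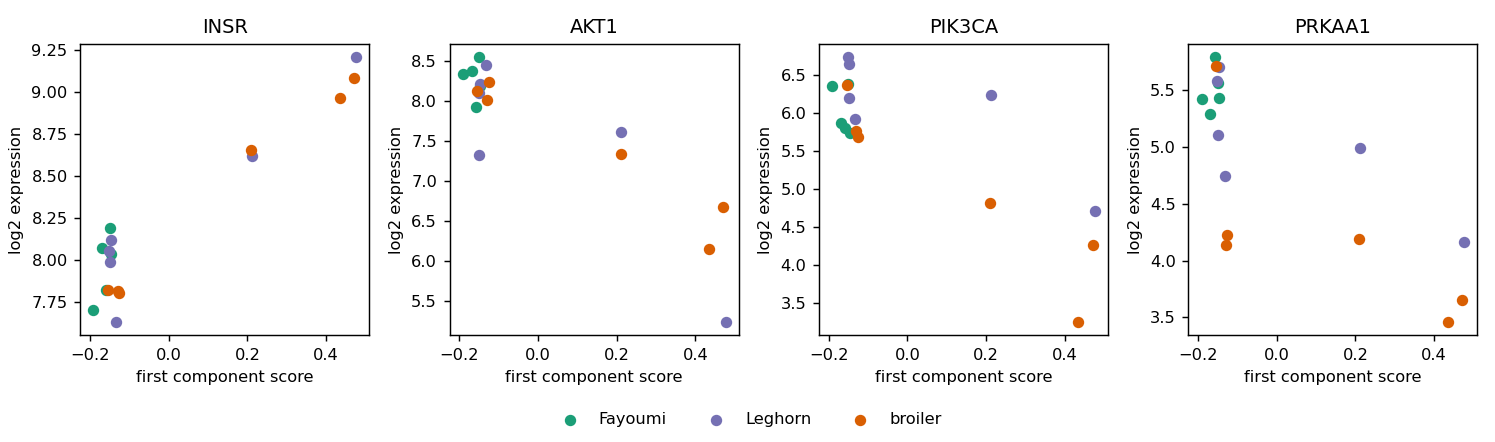
Log2 expression of INSR, AKT1, PIK3CA and PRKAA1 (y axes) against each array's score on the first principal component (x axis, no unit), with 1 point per array coloured by line. The 5 arrays with scores of 0.21 and above are highest for INSR, and none of them is Fayoumi.

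PRKAA1 encodes the alpha 1 catalytic subunit of AMP-activated protein kinase, the form found in most tissues. Its brightest probe set read 5.57, 5.42, 5.43, 5.29 and 5.79 on the Fayoumi arrays. The Leghorn arrays 1 to 6 read 5.10, 4.74, 4.99, 5.58, 5.70 and 4.16. The broiler arrays 1 to 6 read 5.71, 3.46, 4.19, 3.66, 4.23 and 4.13. All Fayoumi values exceed 5 of the 6 broiler values, and the exception is broiler 1, which lies among the Fayoumi values. Leghorn spans the range between, with Leghorn 6 down with the broiler arrays.

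The PRKAA1 mean was 5.50 ± 0.19 in Fayoumi and 4.23 ± 0.79 in broiler, a log2 difference of 1.27 (SE 0.35, interval 0.52 to 2.02, 2.41-fold, limma adjusted p = 0.152). Leghorn averaged 5.05 ± 0.57, a difference of 0.82 from broiler (SE 0.34, interval 0.10 to 1.53, 1.76-fold, limma adjusted p = 0.852). Fayoumi exceeded Leghorn by 0.45 (interval −0.30 to 1.21, limma adjusted p = 0.802). The means ran in the order Fayoumi, Leghorn, broiler. With all arrays weighted equally no pair passed the adjusted threshold. The intervals of both differences from broiler exclude 0, but they are not adjusted for the number of probe sets tested.

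**Figure D4:**
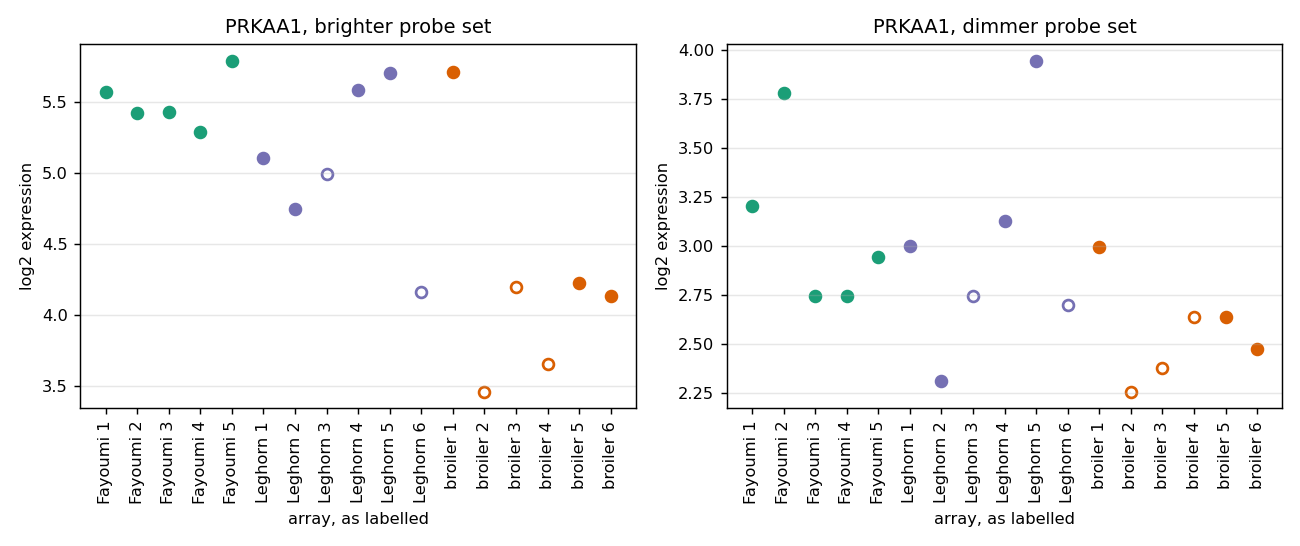
Log2 expression of PRKAA1 (y axis) on each of the 17 arrays (x axis, grouped as Fayoumi, Leghorn and broiler) for the brighter probe set and a dimmer one; open points are the 5 arrays that stood apart. On the brighter probe set the array labelled broiler 1, at 5.71, lies above the other broiler arrays, which read 3.46 to 4.23.

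Which arrays were kept, and how they were weighted, decided the PRKAA1 call. With array weights and no array left out, it was called in Fayoumi against broiler. The sets left out were chosen from the values of this series. Broiler 1 and Leghorn 2 were picked on probe sets that differ between Leghorn and broiler. The limma adjusted p-values without these arrays are therefore descriptions, not independent tests. Without the arrays labelled broiler 1 and Leghorn 2, PRKAA1 rose in Fayoumi, at 5.50 ± 0.19 in Fayoumi against 3.93 ± 0.35 in broiler (n = 5 each), a difference of 1.56 with a limma adjusted p of 0.00852. It also rose in Leghorn, at 5.11 ± 0.61 against 3.93 ± 0.35 in broiler (n = 5 each), a difference of 1.17 with a limma adjusted p of 0.0439. PRKAA1 was then the 1 member called of 20 in both comparisons, where 1.82% and 1.75% of all probe sets were called. Without the 5 arrays that stood apart the Fayoumi difference was 0.81 (interval −0.01 to 1.62, limma adjusted p = 0.669) and the Leghorn difference 0.59, while Fayoumi against Leghorn was 0.22. With all 7 arrays left out, which leaves 2 broiler arrays, the differences were 1.32 for Fayoumi and 1.28 for Leghorn, with limma adjusted p-values of 0.014 and 0.0232, and PRKAA1 was again the 1 member called, among 2.09% and 1.97% of all probe sets. In Fayoumi against Leghorn 0 members were called without broiler 1 and Leghorn 2 (1.44% of all probe sets) and without all 7 (2.53%). Without the 5 arrays 0 members were called in any comparison, against 0.504%, 0.00265% and 1.05% of all probe sets. Over 28 alternative settings the Fayoumi difference was called in 4, with adjusted p-values from 0.00785 to 0.669. Leaving out broiler 1 alone gave the lowest of these, with a difference of 1.56.

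With all arrays a dimmer PRKAA1 probe set ranked the line means the same way, with Fayoumi above Leghorn by 0.11. This step was −0.019 without broiler 1 and Leghorn 2, −0.011 without the 5 arrays and −0.27 without all 7. The dimmer probe set read 3.21, 3.78, 2.74, 2.75 and 2.94 in Fayoumi, 2.31, 2.87 and 3.95 in Leghorn and 2.26, 2.56 and 2.99 in broiler. Its values are low, from 2.26 to 3.95, and the groups overlap. It was above background on 16 of 17 arrays, and broiler 2 read the lowest value of the table. The Fayoumi difference from broiler was 0.52 (SE 0.26, interval −0.03 to 1.07, limma adjusted p = 0.515), and it was called in 0 of 28 alternatives. Beside the PRKAA1 levels, 14 skeletal muscle markers were summed, 5 of them above background on all arrays. Their summed level was 9.86 to 13.69 in Fayoumi, 7.64 to 18.11 in Leghorn and 7.97 to 12.35 in broiler. The 18.11 was the array labelled Leghorn 1, and the other Leghorn arrays read 7.64 to 10.95. Leghorn 1 also had the lowest adipocyte sum, 16.42, and stayed in the Leghorn means above. The summed level of 6 liver markers, 1 of them above background on all arrays and FGA on none, was 6.28 to 7.73 in Fayoumi, 4.96 to 7.39 in Leghorn and 4.97 to 6.67 in broiler. Broiler 1 held the highest broiler value of the liver list, and Leghorn 3 and 6 the highest Leghorn values. The part of either list in the PRKAA1 level was not tested.

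The wider pathway was described with 7 lists of 124 genes, of which 108 had a named probe set and 92 were above background on all arrays. Reading 1 probe set per gene, 1 of the 108 changed in Fayoumi against broiler (0.926%), 0 in Leghorn against broiler and 1 in Fayoumi against Leghorn (0.926%). Over all 13008 genes the shares were 0.961%, 0% and 0.761%. The median log2 difference of the 92 genes was 0.08, 0.04 and 0.02 in these comparisons, against −0.04, −0.02 and −0.00 over the 9225 genes above background on all arrays. In Fayoumi against broiler 56 of the 92 were higher and 35 lower, against 4140 higher and 5083 lower among the 9225. The split was similar in Leghorn against broiler, at 55 and 36, against 4250 and 4959. Fayoumi against Leghorn had 50 and 42, against 4512 and 4711. The 92 include genes near background, such as IGF2 at 2.40 and INSRR at 2.32 in broiler.

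**Figure D5:**
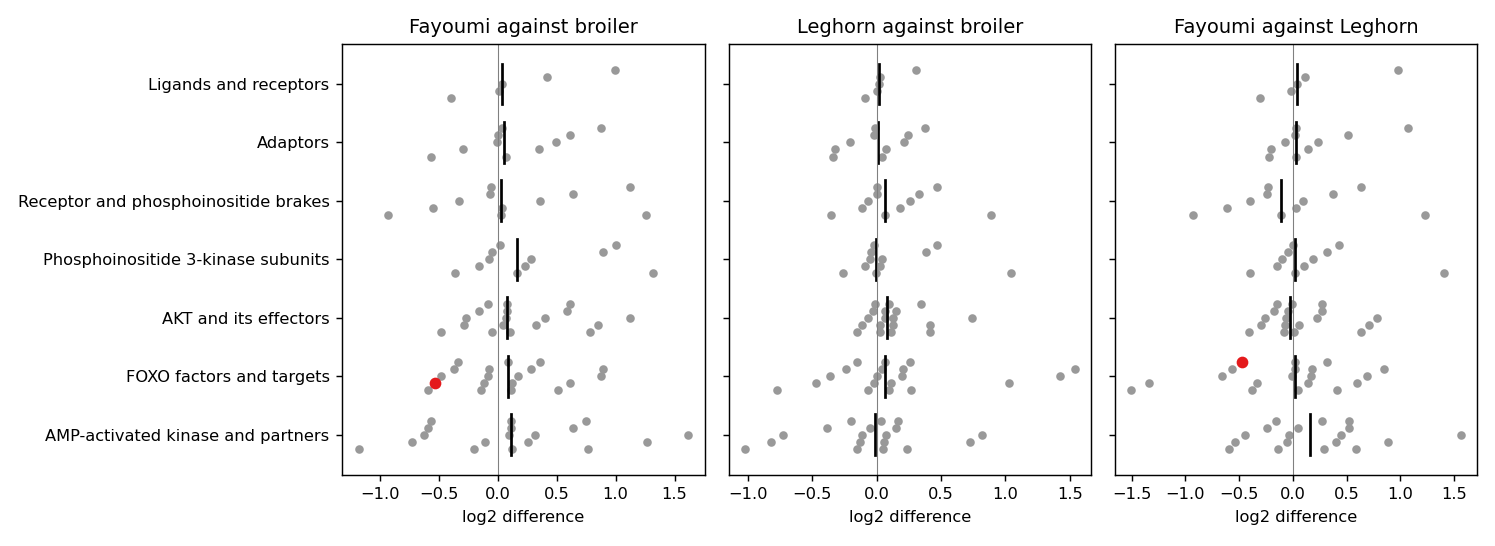
Log2 differences (x axis) of the genes in 7 pathway lists (rows) in each comparison (panels); grey points are genes above background on all arrays, red points are genes with a limma adjusted p under 0.05, and black lines are list medians. The red point in the row of FOXO factors and targets is SOD2, at −0.53 in Fayoumi against broiler and −0.47 in Fayoumi against Leghorn.

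The gene that changed was SOD2, the mitochondrial superoxide dismutase and in mammals a known FOXO target. It averaged 12.53 ± 0.08 in Fayoumi (12.44 to 12.63), 13.00 ± 0.20 in Leghorn (12.83 to 13.38) and 13.06 ± 0.08 in broiler (12.97 to 13.16). All Fayoumi values lie below all values of the other lines. SOD2 fell in Fayoumi by 0.53 log2 against broiler (limma adjusted p = 0.00497) and by 0.47 against Leghorn (limma adjusted p = 0.0128), while Leghorn against broiler was −0.06. Without the 5 arrays that stood apart the differences were −0.56 and −0.53, with limma adjusted p-values of 0.064 and 0.0373. Fitting the replicate number as a block also ended both calls (limma adjusted p = 0.0579 against broiler and 0.109 against Leghorn), as did leaving out 7 arrays (0.0627 and 0.0531), and the call against Leghorn ended with only these lines fitted (0.0808). Among the other FOXO genes none passed. Of the list's 23 genes on the array, the 19 above background on all arrays had medians of 0.09, 0.07 and 0.02.

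Upstream, none of the 7 ligands and receptors on the array, 13 adaptors and 13 brakes on the receptor passed the test. Of these, 5, 10 and 11 were above background on all arrays. INS was above background on 2 arrays and IGF1 on 0. IGF2 averaged 2.44 in Fayoumi and 2.40 in Leghorn and broiler, and INSRR 2.33, 2.34 and 2.32. For genes this dim a difference between lines could hardly be seen. Nearest to the threshold in Fayoumi against broiler was PTPN2, a phosphatase that dephosphorylates the activated receptor. It averaged 8.65 ± 0.14 in Fayoumi and 8.01 ± 0.28 in broiler, with no overlap, a difference of 0.64 (limma adjusted p = 0.125), and against Leghorn, at 8.02 ± 0.36, the difference was 0.63 (limma adjusted p = 0.135). It was called in 3 of 28 and 2 of 28 alternatives, among them Fayoumi against broiler without broiler 1 (limma adjusted p = 0.0489) and without Leghorn 6 (0.0189). IGF2R, the mannose-6-phosphate receptor, averaged 11.32 ± 0.12 in Fayoumi, 10.35 ± 0.73 in Leghorn and 10.33 ± 0.81 in broiler, and its limma adjusted p-values were 0.391 against broiler and 0.513 against Leghorn, with differences of 0.30 and 0.59 without the 5 arrays. Among adaptors, IRS4 had a difference of 0.35 in Fayoumi against broiler, 0.15 without the 5 arrays. GAB1, a docking protein like the IRS family, averaged 9.19 ± 0.26 in Fayoumi and 8.12 ± 1.17 in Leghorn, a difference of 1.08 (limma adjusted p = 0.802), and 0.34 without the 5 arrays. In Leghorn against broiler IGF1R, the receptor of insulin-like growth factor, differed by 0.31 (0.028 without the 5 arrays). INPP5D, an inositol phosphatase, differed by 0.26 in that comparison (0.15 without the 5 arrays). INPP5D was dim, at 2.92 ± 0.31 in Leghorn and 2.66 ± 0.10 in broiler, so little can be read from its difference.

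Of 12 phosphoinositide 3-kinase subunits, the 11 above background on all arrays had medians of 0.16, −0.00 and 0.02. PIK3CB, the catalytic beta subunit, averaged 6.43 ± 0.40 in Fayoumi, 5.02 ± 0.61 in Leghorn and 5.11 ± 0.62 in broiler. Its difference was 1.32 for Fayoumi against broiler (limma adjusted p = 0.109) and 1.40 for Fayoumi against Leghorn (limma adjusted p = 0.0925), and the comparison with Leghorn was called in 5 of 28 alternatives, among them without Leghorn 2 alone (limma adjusted p = 0.0313). For PIK3CA the Fayoumi difference from Leghorn was −0.05. Whether the PIK3CA and PIK3CB differences differ from each other was not tested.

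Downstream, the 19 genes of the list of AKT and its effectors gave no call. The 18 of them above background on all arrays had medians of 0.08, 0.08 and −0.02. EIF4E, the cap-binding translation factor, differed by 0.40 in Fayoumi against broiler (0.10 without the 5 arrays). DEPTOR, an inhibitor of the growth kinase MTOR, differed by 0.41 in Leghorn against broiler, and RHEB, an activator of MTOR, by −0.29 in Fayoumi against Leghorn (−0.15 without the 5 arrays). The 21 genes of the AMP-activated kinase complex and its partners gave no call. The 18 of them above background on all arrays had medians of 0.11, −0.01 and 0.16. CAMKK2, a kinase that can activate AMP-activated kinase, averaged 7.15 ± 0.22 in Fayoumi and 5.59 ± 0.94 in Leghorn, with no overlap, a difference of 1.57 (limma adjusted p = 0.389). It was called with array weights, at 2.18 (limma adjusted p = 0.00154), and without 7 arrays, at 2.40 (limma adjusted p = 0.000684). CAB39L, a partner of the upstream kinase STK11, differed by −0.73 in Leghorn against broiler (limma adjusted p = 0.852). SHC1, the adaptor with the smallest p in Leghorn against broiler, was above background on only 2 arrays.

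Without the arrays labelled broiler 1 and Leghorn 2, 3 of the 108 list genes were called in each comparison, named here with their values known. Of all probe sets 1.82%, 1.75% and 1.44% were called in this setting, so the counts are not read as a result about the pathway. In Fayoumi against broiler these were SOD2, PRKAA1 and ACACB, the acetyl-CoA carboxylase that gates fat oxidation and is a substrate of AMP-activated kinase, at 1.90. In Leghorn against broiler they were PRKAA1, SESN3, a sestrin and FOXO target in mammals, at −1.06 (−0.77 with all arrays), and CAB39L at −1.09. In Fayoumi against Leghorn they were SOD2, SESN3 at 0.79 and PIK3CB at 1.58. With the 5 arrays that stood apart left out, 0, 0 and 1 of the 108 list genes were called, against 0.504%, 0.00265% and 1.05% of all probe sets.

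The genes whose pattern over arrays was most like each member's were named from Spearman's rho over the 12 arrays that did not stand apart, among 14761 probe sets. These are the highest of many values and a description only, over arrays that share their normalization. PRKAA1 was most like CTBPL (0.951) and ABCE1 (0.944), IRS2 most like MRPS17 (0.958) and MAPK8 (0.956), and PIK3CA most like DIAPH2 (0.965) and LRCH2 (0.943). AKT1 was most like ABLIM1 (0.923) and RASL11AL (0.916), and FOXO1 most like ZBTB25 (0.918) and TACC3 (0.909). INSR and PIK3R1 had lower highest values, with CLIC2 (0.888) and VPS33B (0.874) for INSR and CDH20 (0.867) and MYL9 (0.846) for PIK3R1. PRKAA1 had 37 probe sets above 0.9, IRS2 had 26, and INSR and PIK3R1 had 0.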

How the data were processed

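The deposited table holds log2 expression values that the authors had normalized, 1 per probe set and array; R 2.13.2, RMA and GCRMA stand in the submitters' processing notes, and the role of each is not given in the sources used here. The 17 value columns were used as deposited, with 37.1% of values at the lowest value, 2.26, where differences are compressed. The number of arrays limits the precision. Gene symbols are those of the platform annotation, replaced where the gene number has another symbol in the RefSeq table of assembly bGalGal1.mat.broiler.GRCg7b, used for names alone. Of the IRS2 probe sets, 3 carry a gene number that this table does not hold and keep the annotated symbol.

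Lines were compared with limma 3.58.1 in R 4.3.3 (lmFit, contrasts.fit, eBayes, line as the single factor, 17 arrays), two-sided, adjusted by Benjamini-Hochberg over 37693 chicken probe sets, with 0.05 as the threshold. The limma step was tested on simulated data. Where 1 probe set stands for a gene, it is the brightest on average. From each list the members past the threshold are named or, where none passed, the one with the smallest adjusted p, with ties, which are many in Leghorn against broiler and in Fayoumi against Leghorn, broken by the unadjusted p, a step added once values were known. Members and lists were chosen with earlier results of these data known. The labels do not say that a replicate number is shared between lines, so numbers were not used as a block. Deviations of same-numbered arrays had a median correlation of −0.026 over 16 pairs (−0.79 to 0.60). Over 80 other pairs it was −0.000108 (−0.80 to 0.80). With this spread the medians cannot decide whether a block exists. Alternatives were other scalings, filters, variance settings, array weights and left-out arrays. No sequence was used.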

Additional observations from a re-analysis of the deposited data

Results flagged for a closer look

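In 33 groups of arrays (11 compared probe sets in 3 lines), 3 values lay far from the rest of their group. By chance about 1 in 20 such groups would be picked out, were they independent. They share arrays, and several probe sets read the same gene, so this rate is only a rough guide. The brighter PRKAA1 probe set was 5.71 log2 on the array labelled broiler 1, where the next broiler value was 4.23 and the lowest 3.46. The brighter AKT1 probe set was 5.24 on the array labelled Leghorn 6, where the next Leghorn value was 7.32 and the highest 8.44. The dimmest compared PIK3R1 probe set was 6.52 on the array labelled Fayoumi 5, where the next Fayoumi value was 7.65 and the highest 7.98. The array labelled broiler 1 is the one that lay with the Leghorn arrays over other probe sets, and Leghorn 6 is among the 5 that stood apart.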

How the results depend on the processing

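Of 924 alternative values for the 33 member differences, 869 kept their direction and side of the threshold, 6 passed the threshold only in the alternative (all of the brighter PRKAA1 probe set) and 49 changed sign, none of a called difference. Member calls stayed at 0 in Fayoumi against Leghorn. In Fayoumi against broiler 1 member was called with array weights, without broiler 1 and Leghorn 2, and without 7 arrays, and 0 to 1 when 1 array was left out. In Leghorn against broiler 1 was called without broiler 1 and Leghorn 2 and without 7 arrays. Leaving out the 7 arrays was chosen after seeing the data. Quantile normalization, centred arrays, a floor at background and a trended robust variance changed no member call. Dim probe sets and 17 arrays limit what could be called.

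Over all probe sets, called counts in Fayoumi against broiler (269) were 1319 with array weights, 505 with a filter on dim probe sets, 141 with the replicate number as a block, 686 without broiler 1 and Leghorn 2, 787 without 7 arrays and 148 to 613 with 1 array left out (613 without broiler 1). In Leghorn against broiler (0) they were 9 with array weights, 661 without broiler 1 and Leghorn 2, 1 without the 5 arrays that stood apart, 742 without 7 arrays and 0 to 118 with 1 array left out (118 without broiler 1). In Fayoumi against Leghorn (236) they were 2042 with array weights, 426 with the filter, 139 with the block, 544 without broiler 1 and Leghorn 2, 397 without the 5 arrays, 953 without 7 arrays and 158 to 429 with 1 array left out. The block changed no member call; it left SOD2 uncalled, with limma adjusted p-values of 0.0579 against broiler and 0.109 against Leghorn. SOD2 also lost its call without 7 arrays (0.0627 and 0.0531), without the 5 arrays against broiler (0.064) and against Leghorn when only both lines were fitted (0.0808).

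Sign changes were as follows, in log2 units, and the cause was not tested. For INSR (−0.39, −0.09 and −0.31 in the 3 comparisons) array weights gave 0.048 for Fayoumi against broiler and 0.13 for Leghorn against broiler. Without the 5 arrays it was 0.15, 0.13 and 0.016, without 7 arrays 0.15 and 0.24 against broiler, and with 1 array left out −0.28 to 0.057 for Leghorn against broiler. IRS2 in Leghorn against broiler was 0.041 without the 5 arrays. The brightest PIK3R1 probe set in Fayoumi against broiler was −0.087 with array weights, −0.20 without the 5 or 7 arrays and −0.027 to 0.39 with 1 array left out, and −0.29 to 0.010 against Leghorn. The second was −0.21, −0.31, −0.39 and −0.11 to 0.33 in the same order, and −0.27 to 0.021 against Leghorn. The dimmest was −0.060 without the 5 and −0.12 without 7 arrays, and −0.23 to 0.22 against Leghorn with 1 array left out. PIK3CA in Fayoumi against Leghorn ranged from −0.32 to 0.085. The brighter AKT1 probe set in Leghorn against broiler was −0.11 without the 5, −0.25 without 7 and −0.19 to 0.51 with 1 array left out, and the dimmer was −0.018 without 7. FOXO1 without 7 arrays was −0.050 in Fayoumi and −0.066 in Leghorn against broiler, and −0.080 in Fayoumi against Leghorn with array weights. The dimmer PRKAA1 probe set in Fayoumi against Leghorn was −0.17 with array weights, −0.019 without broiler 1 and Leghorn 2, −0.011 without the 5, −0.27 without 7 and −0.061 to 0.31 with 1 array left out.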

Other observations

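Other subunits of AMP-activated protein kinase, chosen after their values were seen, did not pass the test in Fayoumi against broiler with all arrays. The gamma subunit PRKAG2 averaged 11.18 ± 0.17 log2 in Fayoumi and 10.53 ± 0.28 in broiler, with no overlap, a difference of 0.64 (limma adjusted p = 0.271), which was called with array weights and without Leghorn 6. The beta subunit PRKAB1 averaged 8.60 ± 0.21 in Fayoumi and 9.16 ± 0.40 in broiler, a difference of −0.56 (limma adjusted p = 0.477). STK11, the kinase that activates the complex, averaged 4.01 ± 0.45 in Fayoumi and 4.74 ± 0.46 in broiler, a difference of −0.73 (limma adjusted p = 0.300). FOXO3, a transcription factor related to FOXO1, averaged 12.02 ± 0.50 in Fayoumi and 11.41 ± 0.26 in broiler, a difference of 0.62 (limma adjusted p = 0.444).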
